A study of Mus musculus with 24 samples.

Results

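The chemokine genes Ccl17, Ccl22, Ccl24 and Ccl11 were followed in mouse macrophages across Tet2 genotype, exposure to interleukin 4 (IL4) and the tumour setting. They were taken by symbol from both deposited expression tables and are 4 of the 23309 gene models that each table lists. Of these, 3 reached the level needed for testing in bone marrow-derived macrophages (BMDM), all but Ccl11, and 0 did so in tumour-associated macrophages (TAM).

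RNA was sequenced from 12 BMDM libraries and 8 TAM libraries, which are 20 of the 24 samples of the series, and the other samples, 4 libraries of immunoprecipitated 5-hydroxymethylcytosine, were not analysed here. The BMDM came from C57BL/6 marrow labelled Tet2 knockout or wild type, were grown for 7 days in macrophage colony-stimulating factor and L929-conditioned medium, and were exposed to 20 ng/ml IL4 for 10 h or 24 h or left untreated, with 2 libraries in each of the 6 groups. The allele of the knockout marrow and the age of its donors are not given in the sources used here. The TAM were CD11b+F4/80+ cells sorted 4 weeks after YUMM1.7 melanoma cells had been injected under the skin of male C57BL/6J mice 6 to 8 weeks old. Their groups of 4 libraries each were LysMcre +/wt, Tet2 fl/fl, labelled knockout, and LysMcre wt/wt, Tet2 fl/fl, the wild type, so both carried the floxed allele and deletion was limited to cells that express LysM-Cre. Ribosomal RNA was removed for the BMDM libraries, whereas polyadenylated RNA was selected for the TAM libraries, so no test crossed the tables. Levels are in FPKM, a fragment count scaled by transcript length and by library total, which allows levels of different genes to be set side by side.

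All 4 genes encode small secreted CC chemokines tied to type 2 immunity. CCL17 and CCL22 are the ligands of CCR4, a receptor on Th2 and regulatory T cells. CCL24 (eotaxin-2) and CCL11 (eotaxin) are ligands of CCR3, the receptor by which eosinophils are drawn into tissue. IL4 acts through its receptor and the transcription factor STAT6, and macrophages exposed to it take on alternative activation, of which CCL17, CCL22 and CCL24 are known products. CCL11 is known mainly from fibroblasts and epithelium.

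Ccl22 and Ccl17 lie close together on mouse chromosome 8, with only Cx3cl1 between them in the RefSeq gene order, and Ccl24 lies on chromosome 5 beside Ccl26. Ccl11 lies on chromosome 11 with Ccl2 and Ccl7 before it and Ccl12, Ccl8 and Ccl1 after it. Of the 4 genes, 2 matched the promoter table, Ccl17 and Ccl22, and their promoters are shown because the pair are neighbours that both rose with 24 h of IL4. They are RefSeq sequences of the build GRCm38.p6, each 300 bases long on the + strand, at chr8:94810203-94810502 for Ccl17 and chr8:94745434-94745733 for Ccl22. Capitals mark matches to the STAT site in its forms TTCNNNNGAA and TTCNNNGAA.
Ccl17: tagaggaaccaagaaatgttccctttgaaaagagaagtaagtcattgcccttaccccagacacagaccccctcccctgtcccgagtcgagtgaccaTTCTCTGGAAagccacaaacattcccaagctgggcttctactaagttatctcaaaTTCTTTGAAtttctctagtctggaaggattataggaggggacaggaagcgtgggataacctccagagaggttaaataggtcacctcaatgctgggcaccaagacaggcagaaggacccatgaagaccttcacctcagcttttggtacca
Ccl22: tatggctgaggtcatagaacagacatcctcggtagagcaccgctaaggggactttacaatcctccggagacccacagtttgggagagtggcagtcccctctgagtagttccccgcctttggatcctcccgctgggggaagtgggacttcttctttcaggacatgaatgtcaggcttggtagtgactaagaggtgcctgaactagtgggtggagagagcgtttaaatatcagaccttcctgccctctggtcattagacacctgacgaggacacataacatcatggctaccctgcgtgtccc
The Ccl17 promoter held the match TTCTCTGGAA, which begins 154 bases before the annotated start, and TTCTTTGAA, which begins 99 bases before it. The Ccl22 promoter held no match to either form, and neither promoter held the NF-kB form GGGNNTTTCC. Both strands were searched, and no matches overlapped. Of 32851 promoters of the same length, 6.95% held TTCNNNNGAA, 8.30% held TTCNNNGAA, 14.6% held either, and 1.63% held GGGNNTTTCC.

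Tet2, the targeted gene, was not called between the genotypes at any time in BMDM or in TAM. In BMDM it had 4.02 and 4.48 FPKM in labelled knockout and 4.11 and 5.91 in wild type without IL4, then at 10 h 7.22 and 8.19 in labelled knockout and 8.74 and 8.81 in wild type, and at 24 h 11.3 and 10.3 in labelled knockout and 9.38 and 9.82 in wild type. The BMDM libraries of the genotypes overlapped without IL4, whereas with IL4 they did not overlap, with labelled knockout lower at 10 h and higher at 24 h. With 2 libraries a group such separation says little, here and below. The share of all genes whose genotypes separate in this way was not counted, in BMDM or in TAM. The share whose IL4 times separate was not counted either. The log2 difference of Tet2 was −0.18 ± 0.13 without IL4 (limma, adjusted p = 0.576), −0.17 ± 0.13 at 10 h (adjusted p = 0.837) and 0.16 ± 0.13 at 24 h (adjusted p = 0.506). In TAM it had 14.4 to 18.98 FPKM in labelled knockout and 7.75 to 16.1 in wild type (log2 difference 0.36 ± 0.22, limma, adjusted p = 0.418). The values cover the whole gene model, and the deleted exons are not given in the sources used here, so these levels do not check the labels and the groups are called labelled knockout throughout. Absolute depth is unknown, and relative depth, read from genes of low level, spanned 0.947 to 1.31 among the BMDM libraries. Among the TAM libraries it spanned 0.401 to 1.08, lowest in library 5 of labelled knockout. The summed level of 7 macrophage markers, Csf1r and Lyz2 among them, was 15137 and 15963 FPKM in labelled knockout and 15190 and 19544 in wild-type BMDM without IL4. With IL4 it was 7961 and 8616 in labelled knockout and 10132 and 10216 in wild type at 10 h, and 7279 and 7340 in labelled knockout and 9694 and 11315 in wild type at 24 h, so that treated libraries lay below untreated ones and, with IL4, labelled knockout below wild type. In TAM it was 2341 to 4221 FPKM in labelled knockout and 4745 to 7178 in wild type, without overlap. This sum is weighted to the most abundant markers. Taken singly, 0 of the 7 markers were called between the genotypes in TAM. Their median log2 difference was −0.02, with 3 of the 7 above 0.

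IL4 raised Ccl24 to one of the most abundant transcripts of BMDM, and raised Ccl17 and Ccl22 later and to far lower levels, in both genotypes. Ccl11 stayed under 1 FPKM in every BMDM library. The differences between labelled knockout and wild-type cultures did not pass the test for any of the tested genes at any time.

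Ccl24 was the only one of the 4 with a level above 1 FPKM before IL4. Without IL4 it had 2.40 and 3.01 FPKM in labelled knockout and 4.17 and 2.82 in wild type. At 10 h it had 247 and 216 FPKM in labelled knockout and 200.1 and 192 in wild type. At 24 h it had 337 and 373 FPKM in labelled knockout and 258 and 287 in wild type. Every IL4-treated library thus lay above every untreated one, and within each genotype both libraries at 24 h lay above both at 10 h. Its mean at 24 h was 131 times the untreated mean in labelled knockout and 77.9 times in wild type. Ranked among 23307 gene symbols, Ccl24 stood 180th and 183rd from the top in the labelled knockout libraries at 24 h and 241st and 246th in the wild-type ones. At 24 h it made up 97.5% to 98.3% of the summed FPKM of the 4 genes.

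Ccl17, a CCR4 ligand, was listed at 0 in 3 of the 4 untreated libraries and had 0.0983 FPKM in labelled knockout replicate 2. At 10 h it had 0.361 and 0.973 FPKM in labelled knockout and 0.916 and 0.826 in wild type. At 24 h it had 2.01 and 3.20 FPKM in labelled knockout and 2.46 and 3.57 in wild type. The times did not overlap in either genotype, while the genotypes overlapped at each time.

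Ccl22, the other CCR4 ligand, had at most 0.0295 FPKM without IL4 and was listed at 0 in 1 library of each genotype. At 10 h it was still low, with 0.281 and 0.316 FPKM in labelled knockout and 0.331 and 0.129 in wild type. At 24 h it had 3.34 and 4.80 FPKM in labelled knockout and 3.33 and 3.89 in wild type. Most of the increase of Ccl22 thus lay between 10 h and 24 h, and it passed Ccl17 in that interval. At 10 h Ccl17 was above Ccl22 without overlap in both genotypes. At 24 h Ccl22 was above Ccl17 without overlap in labelled knockout, and the pair overlapped in wild type.

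Ccl11 was listed at 0 in all 4 untreated libraries. At 10 h it had 0.130 and 0.233 FPKM in labelled knockout and 0.282 and 0.238 in wild type. At 24 h it had 0.337 and 0.173 FPKM in labelled knockout, while wild type had 0.0510 in replicate 1 and 0 in replicate 2. Of the 8 libraries exposed to IL4 that replicate was the only one listed at 0, and at 24 h both labelled knockout libraries were above both wild-type ones.

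**Figure D1:**
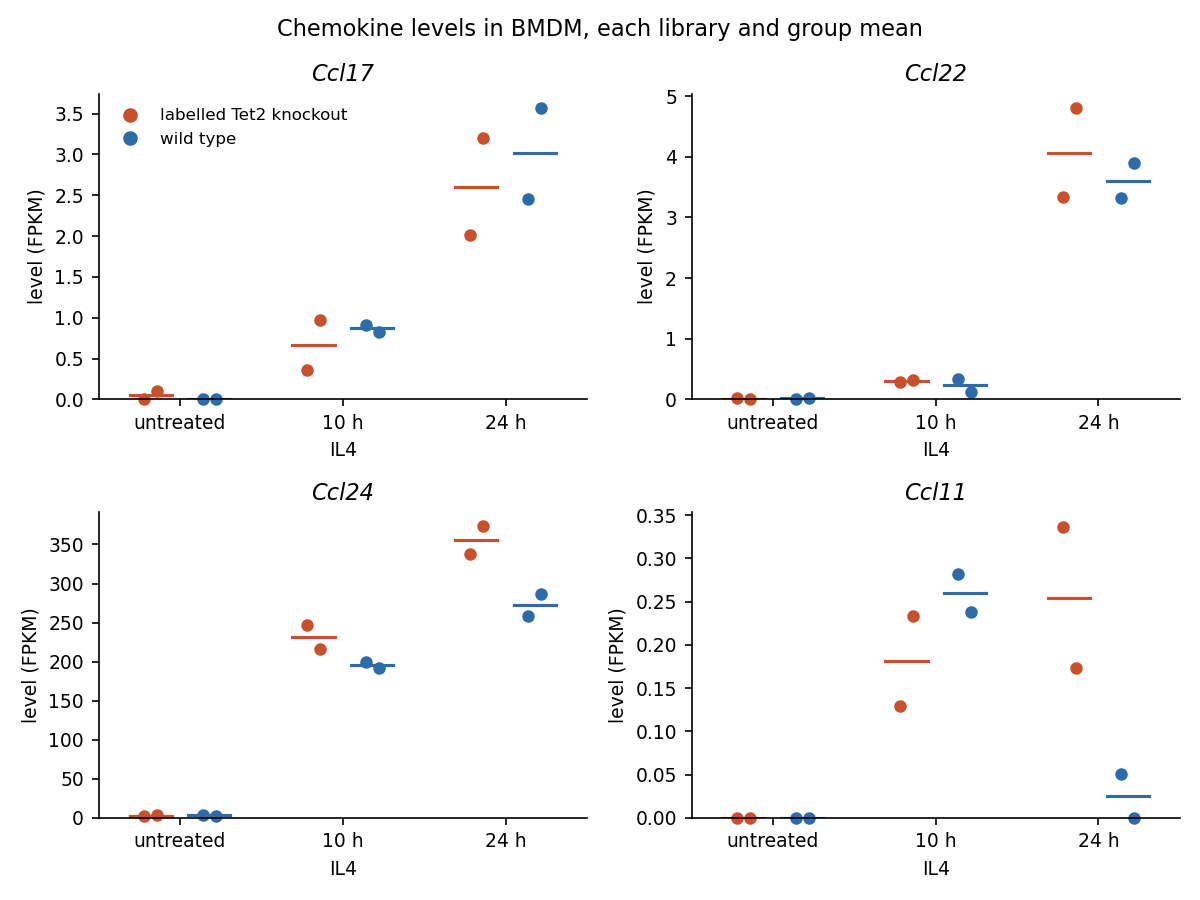
Level (FPKM, linear axis from 0, a separate scale for each gene) of the 4 chemokine genes in the 12 BMDM libraries by IL4 time, with labelled Tet2 knockout left of wild type at each time. Points are libraries and lines are means of 2; Ccl24 reaches 373 FPKM, Ccl22 4.80, Ccl17 3.57 and Ccl11 0.337.

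Differences were tested with limma on log2(FPKM + 1) in one fit of all 12 BMDM libraries, with p-values adjusted by the Benjamini-Hochberg method over 10510 genes and called below 0.05. Adding 1 before the logarithm understates changes of genes near 0, which bears on Ccl17, Ccl22 and Ccl11. In labelled knockout at 10 h, 24.2% of all tested genes were called higher with IL4 and 14.6% lower, and in wild type 28.2% were called higher and 14.2% lower. At 24 h these shares were 26.5% higher and 17.1% lower in labelled knockout, and 29.7% higher and 20.3% lower in wild type. The share of higher calls among all called genes was smaller after scaling by median of ratios and after quantile normalization, 53.9% and 49.1% against 62.3% as deposited in labelled knockout at 10 h, 54.2% and 49.8% against 66.5% in wild type at 10 h, 54.5% and 48.8% against 60.8% in labelled knockout at 24 h, and 54.5% and 48.0% against 59.4% in wild type at 24 h. The largest shift of the median of all genes was from 0.09 as deposited to −0.01 with quantile normalization, in wild type at 10 h. Of the 3 chemokine genes tested, 2 were called higher at 10 h and 3 at 24 h, in each genotype.

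Ccl24 rose at 10 h by 5.97 ± 0.15 in labelled knockout (log2 difference ± SE, limma, adjusted p = 1.52e-09) and by 5.47 ± 0.15 in wild type (adjusted p = 2.17e-09). These were the 2nd (labelled knockout) and the 7th (wild type) largest increases among the tested genes. Its rise at 24 h was 6.59 ± 0.15 in labelled knockout (limma, adjusted p = 5.49e-10) and 5.94 ± 0.15 in wild type (adjusted p = 8.21e-10), the 5th largest in labelled knockout and the 8th in wild type.

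Ccl17 rose at 24 h by 1.76 ± 0.20 in labelled knockout (limma, adjusted p = 5.67e-05) and by 1.99 ± 0.20 in wild type (adjusted p = 2.30e-05). Its rise at 10 h was 0.90 ± 0.20 in wild type (limma, adjusted p = 0.005) and 0.64 ± 0.20 in labelled knockout (adjusted p = 0.0279). The labelled knockout call at 10 h was lost without untreated replicate 1 (0.58, adjusted p = 0.132), without untreated replicate 2 (0.71, adjusted p = 0.0699), without 10 h replicate 2 (0.38, adjusted p = 0.226) and with no filter on low values (adjusted p = 0.0756).

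Ccl22 rose at 24 h by 2.31 ± 0.14 in labelled knockout (limma, adjusted p = 5.83e-07) and by 2.18 ± 0.14 in wild type (adjusted p = 8.85e-07). Its difference at 10 h was 0.36 ± 0.14 in labelled knockout (adjusted p = 0.0682) and 0.27 ± 0.14 in wild type (adjusted p = 0.146), neither past the threshold. Treated and untreated libraries did not overlap, a separation whose share over all genes was not counted. With a pseudocount of 0.1 in place of 1 both passed, at 1.82 in labelled knockout (adjusted p = 0.00255) and 1.46 in wild type (adjusted p = 0.00809), and the labelled knockout difference also passed when only the libraries compared were fitted (adjusted p = 0.0122).

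Ccl11 was below the filter and had no test in the main fit. With no filter, its difference from untreated at 10 h was 0.24 in labelled knockout (limma, adjusted p = 0.0304) and 0.33 in wild type (adjusted p = 0.00711). At 24 h it was 0.32 in labelled knockout (adjusted p = 0.00663) and 0.04 in wild type (adjusted p = 0.774). Between genotypes at 24 h the value was 0.29 (adjusted p = 0.0481). These differences rest on levels of at most 0.337 FPKM.

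The 3 tested genes reached different shares of their 24 h level at 10 h. Ccl24 had 65.1% of its 24 h mean in labelled knockout and 71.9% in wild type. Ccl17 had 25.6% in labelled knockout and 28.9% in wild type, and Ccl22 had 7.34% in labelled knockout and 6.37% in wild type. The order of the genes was the same in both genotypes. Between 10 h and 24 h the mean of Ccl22 grew 13.6-fold in labelled knockout and 15.7-fold in wild type, that of Ccl17 3.90-fold in labelled knockout and 3.46-fold in wild type, and that of Ccl24 1.54-fold in labelled knockout and 1.39-fold in wild type.

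**Figure D2:**
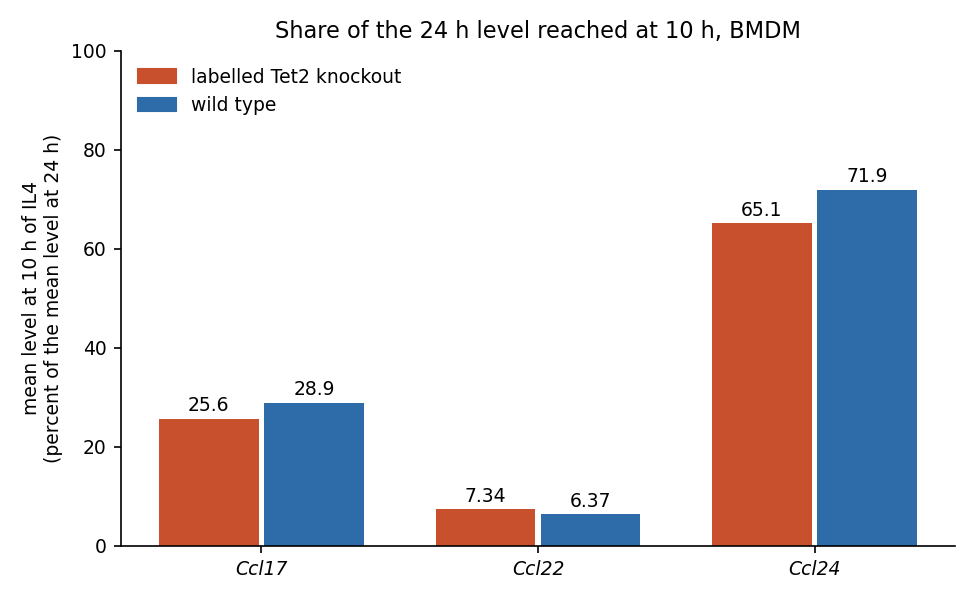
Mean level after 10 h of IL4 as a percent of the mean level after 24 h (FPKM, 2 libraries a group, bars from 0) for Ccl17, Ccl22 and Ccl24 in BMDM, labelled Tet2 knockout left of wild type. Ccl24 stands at 65.1% in labelled knockout and 71.9% in wild type, Ccl17 at 25.6% in labelled knockout and 28.9% in wild type, and Ccl22 at 7.34% in labelled knockout and 6.37% in wild type.

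From 10 h to 24 h, 12.1% of tested genes were called higher in labelled knockout and 11.6% in wild type, and all 3 chemokine genes were among them in each. Ccl22 rose by 1.95 ± 0.14 in labelled knockout (limma, adjusted p = 1.56e-05) and by 1.91 ± 0.14 in wild type (adjusted p = 1.68e-05), the 40th largest increase in labelled knockout and the 37th in wild type. Ccl17 rose by 1.12 ± 0.20 in labelled knockout (limma, adjusted p = 0.00282) and by 1.09 ± 0.20 in wild type (adjusted p = 0.00347). Ccl24 rose by 0.62 ± 0.15 in labelled knockout (limma, adjusted p = 0.0136) and by 0.47 ± 0.15 in wild type (adjusted p = 0.0413). The Ccl24 call in labelled knockout was lost without 10 h replicate 2 (adjusted p = 0.10) and without 24 h replicate 2 (adjusted p = 0.0950). In wild type it was lost in 9 of 12 alternatives, without 10 h replicate 1 (adjusted p = 0.127) or 2 (adjusted p = 0.186) and without 24 h replicate 1 (adjusted p = 0.0566) or 2 (adjusted p = 0.133) among them.

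The genotypes were then compared at each time. Of all tested genes, 2.7% were called in either direction in untreated cultures, 2.84% at 10 h and 7.43% at 24 h, and 0 of the 3 chemokine genes at each. Of the genes called at 24 h, 71.2% were higher in labelled knockout as deposited, 46.3% after scaling by median of ratios and 54.1% after quantile normalization. The sign of each Ccl24 value below was the same under both. The share called at an unadjusted p under 0.05 was 14.5% untreated, 10.6% at 10 h and 25.3% at 24 h, and Ccl24 at 24 h was the only one of the chemokine values at that level.

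On the log2(FPKM + 1) scale Ccl24 had the largest genotype difference of the 3 at each time. The ratio of its labelled knockout mean to its wild-type mean was 0.773 in untreated cultures, 1.18 at 10 h and 1.30 at 24 h. The ratio for Ccl17 was 0.766 at 10 h and 0.865 at 24 h and that for Ccl22 was 1.30 at 10 h and 1.13 at 24 h, so that by ratio, as with a pseudocount of 0.1, both CCR4 ligands differed more than Ccl24 at 10 h. With that pseudocount Ccl17 also differed more without IL4 (0.49, against −0.34 for Ccl24). For Ccl24, both labelled knockout libraries lay above both wild-type libraries at 10 h and at 24 h, a separation whose share over all genes was not counted. The log2 difference of Ccl24 at 24 h was 0.38 ± 0.15 with a 95% interval of 0.05 to 0.71 (limma, unadjusted p = 0.0286, adjusted p = 0.145). Its adjusted p was 0.0577 to 0.461 over the alternatives. At 10 h the difference was 0.24, with an interval of −0.10 to 0.57 (adjusted p = 0.735), and in untreated cultures −0.27, with an interval of −0.60 to 0.06 (adjusted p = 0.452). The response to 24 h of IL4 was 0.65 ± 0.21 larger in labelled knockout than in wild type, with an interval of 0.18 to 1.12 (limma interaction, unadjusted p = 0.0115, adjusted p = 0.171). That value was 0.43 without untreated wild-type replicate 1 and 0.87 without untreated wild-type replicate 2. Of all tested genes, 0.295% were called in this interaction and 0.0951% in that at 10 h, where the Ccl24 value was 0.51 ± 0.21 (limma, unadjusted p = 0.0378, adjusted p = 0.994).

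The genotype differences of the CCR4 ligands were small against their intervals. At 24 h the labelled knockout minus wild type value was −0.16 for Ccl17, with a 95% interval of −0.61 to 0.29 (limma, adjusted p = 0.668), and 0.13 for Ccl22, with an interval of −0.19 to 0.44 (adjusted p = 0.628). At 10 h these values were −0.19 for Ccl17 (adjusted p = 0.934) and 0.08 for Ccl22 (adjusted p = 0.987), and in untreated cultures 0.07 for Ccl17 (adjusted p = 0.903) and 0.00 for Ccl22 (adjusted p = 0.997). The interaction at 24 h was −0.23 ± 0.29 for Ccl17 (adjusted p = 0.702) and 0.13 ± 0.20 for Ccl22 (adjusted p = 0.767).

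**Figure D3:**
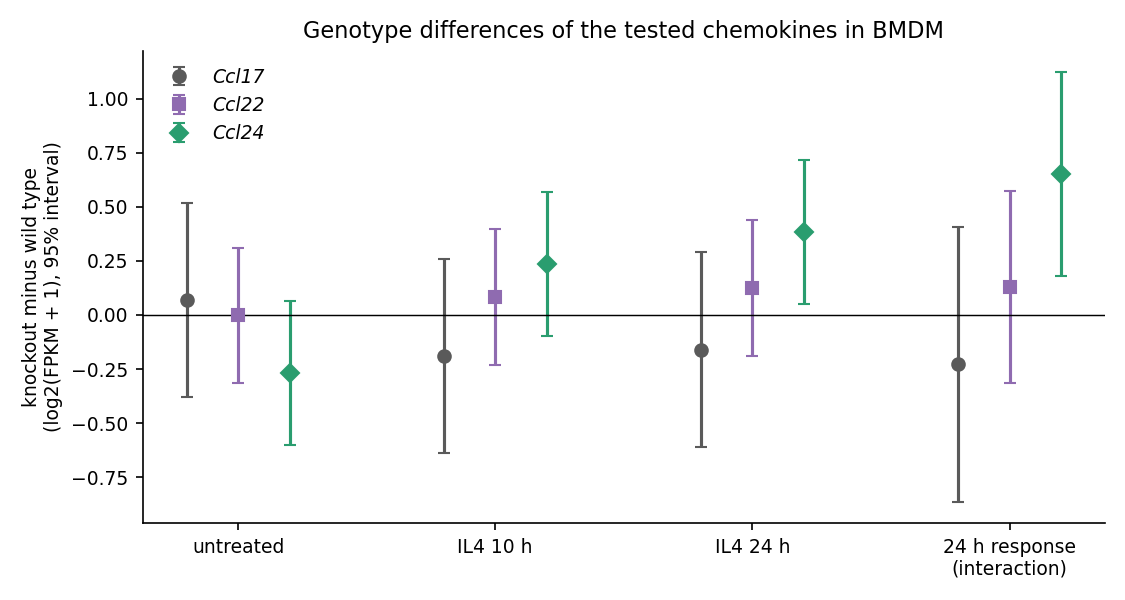
Labelled Tet2 knockout minus wild type (log2(FPKM + 1)) for Ccl17, Ccl22 and Ccl24 in BMDM at each IL4 time, and the interaction, which is the difference between the genotypes in the response to 24 h of IL4. Symbols are limma estimates and bars 95% intervals; the Ccl24 interval is 0.05 to 0.71 at 24 h and 0.18 to 1.12 for the interaction, and the intervals of Ccl17 and Ccl22 span 0.

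Marker lists of macrophages and of other cell types were set beside these values. The calls below are to be read against all tested genes. Between genotypes 2.7% of these were called in either direction without IL4, 2.84% at 10 h and 7.43% at 24 h. Of the 7 macrophage markers, whose sums with IL4 were lower in labelled knockout, 2 were called lower at 10 h and at 24 h and 0 higher. These were Itgam (−0.39 ± 0.10 at 24 h, limma, adjusted p = 0.0449), an integrin gene, and Fcgr1 (−0.74 ± 0.14, adjusted p = 0.0139), an Fc receptor gene, and both calls at 24 h were lost without either labelled knockout replicate and without wild-type replicate 2. Summed over 8 fibroblast genes, the level was 21.1 and 23.0 FPKM in labelled knockout and 4.55 and 4.92 in wild type without IL4, 19.6 and 20.4 in labelled knockout and 4.33 and 5.00 in wild type at 10 h, and 9.30 and 9.48 in labelled knockout and 2.48 and 2.55 in wild type at 24 h. All 3 fibroblast genes tested (Col1a2, Dcn and Postn) were called higher in labelled knockout at each time. Set beside these sums, Ccl11 had 0.130 and 0.233 FPKM in labelled knockout and 0.282 and 0.238 in wild type at 10 h, a narrow gap. At 24 h it had 0.337 and 0.173 in labelled knockout and 0.0510 and 0 in wild type. T and NK cell markers summed to 13.04 FPKM in each labelled knockout library and to 4.88 and 4.51 in wild type without IL4, to 3.57 and 3.25 in labelled knockout and 1.35 and 1.16 in wild type at 10 h, and to 1.35 and 1.33 in labelled knockout and 0.555 and 0.685 in wild type at 24 h. Most of this was Cd4, the 1 member tested, which was called higher in labelled knockout at each time (1.35 ± 0.09 without IL4, 1.00 ± 0.09 at 10 h and 0.57 ± 0.09 at 24 h, limma, adjusted p at most 0.00746). The Cd4 call at 24 h was lost without either labelled knockout replicate of that time. The T cell receptor subunit gene Cd3g was listed at 0 in all 12 libraries. In untreated labelled knockout, where the sum was highest, 5 of the 7 markers were listed at 0 in both libraries (Cd3d, Cd3e, Cd3g, Ncr1 and Klrb1c). The part of fibroblast or T cell RNA, or of the macrophage marker difference, in the chemokine values was not tested. Summed over 8 dendritic cell genes the level was at most 1.73 FPKM in any library, with Flt3 and Ccr7 at or near 0. Zbtb46, the 1 member tested, rose with 24 h of IL4 by 0.60 ± 0.12 in labelled knockout (limma, adjusted p = 0.00177) and by 0.79 ± 0.12 in wild type (adjusted p = 3.02e-04). The markers of eosinophils, basophils and mast cells summed to at most 1.30 FPKM.

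Receptors and regulators of the 4 chemokines were low or absent in BMDM. Ccr4 had 1.87 and 2.67 FPKM in labelled knockout and 2.07 and 1.89 in wild type without IL4, and 1.09 and 0.533 in labelled knockout and 0.650 and 0.289 in wild type at 24 h. The change of Ccr4 at 24 h was −0.86 ± 0.17 in labelled knockout (limma, adjusted p = 0.00233) and −1.03 ± 0.17 in wild type (adjusted p = 7.17e-04). The RNA of this receptor thus fell over the time in which that of its ligands Ccl17 and Ccl22 rose. Ccr3, the receptor for CCL24 and CCL11, had 1.60 and 2.00 FPKM in labelled knockout and 0.961 and 0.678 in wild type at 24 h, a difference of 0.62 ± 0.14 (adjusted p = 0.0236). That call held in 6 of 11 alternatives and was lost without 24 h replicate 1 or 2 of labelled knockout and without 24 h replicate 2 of wild type. Dpp4, whose protease can trim CCL22 and CCL11, had at most 0.0304 FPKM, and the decoy receptors Darc and Ccbp2 were at or near 0.

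Among other CC chemokines, 10 of 17 could be tested. After 24 h of IL4, 6 were called higher and 3 lower in labelled knockout, and 7 higher and 1 lower in wild type. The median log2 difference of these genes was 1.54 in labelled knockout and 1.64 in wild type, against 0.07 in labelled knockout and 0.06 in wild type over all tested genes. The monocyte attractant genes around Ccl11 on chromosome 11 rose strongly. Ccl8 rose by 3.31 ± 0.12 in labelled knockout and by 4.53 ± 0.12 in wild type, Ccl7 by 3.76 ± 0.16 in labelled knockout and 4.15 ± 0.16 in wild type, and Ccl2 by 3.13 ± 0.18 in labelled knockout and 3.70 ± 0.18 in wild type (limma, adjusted p at most 3.21e-07). Ccl9 rose by 2.41 ± 0.13 in labelled knockout and by 2.47 ± 0.13 in wild type. Ccl2, Ccl7, Ccl12 and Ccl8 spanned 2.05 to 331 FPKM over the BMDM libraries while Ccl11, between them, stayed at or below 0.337. Ccl3, an inflammatory chemokine gene, fell by 1.70 in labelled knockout and by 1.12 in wild type. Between genotypes 3 of the 10 were called higher in labelled knockout without IL4, where 2.7% of all tested genes were called, Ccl4 by 0.94 ± 0.20 (limma, adjusted p = 0.0346), Ccl7 by 0.80 ± 0.16 (adjusted p = 0.0272) and Ccl8 by 0.85 ± 0.12 (adjusted p = 0.00414). At 10 h, beside 2.84% of all genes, Ccl12 (1.10 ± 0.24, adjusted p = 0.033) and Ccl8 (0.56 ± 0.12, adjusted p = 0.038) were called higher and Ccl9 (−0.59 ± 0.13, adjusted p = 0.0442) lower, and each of these 10 h calls was lost without any 1 of the 4 libraries of that time. At 24 h 0 of the 10 were called, beside 7.43% of all genes. The response of Ccl8 to 24 h of IL4 was smaller in labelled knockout than in wild type (limma interaction −1.22 ± 0.17, adjusted p = 0.0203), the 1 call among the 10 in an interaction that called 0.295% of all genes. It was lost in 5 of 16 alternatives, without untreated wild-type replicate 2, untreated labelled knockout replicate 1 or 24 h labelled knockout replicate 1 or 2 among them. Of the untreated calls, that of Ccl8 was lost without labelled knockout replicate 1, that of Ccl7 without either labelled knockout replicate, and that of Ccl4 in 6 of 12 alternatives, without either labelled knockout replicate or wild-type replicate 2 among them.

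Around the other chemokine genes, several neighbours had other levels. Cx3cl1, which encodes fractalkine and lies between Ccl22 and Ccl17, had 0.0558 to 0.337 FPKM in the 12 libraries. Ccl26, beside Ccl24, was listed at 0 in all 20 libraries of both tables. On the other side of Ccl26, Hip1, which encodes a clathrin adaptor, rose by 1.28 ± 0.10 in labelled knockout and by 1.27 ± 0.10 in wild type at 24 h (limma, adjusted p = 2.66e-06 and 2.72e-06). Por, which encodes cytochrome P450 reductase, fell by 1.56 ± 0.14 in labelled knockout and by 1.19 ± 0.14 in wild type (limma, adjusted p = 1.06e-05 and 7.18e-05).

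Of 14 genes of IL4 receptor to STAT6 signalling, 5 were called higher and 3 lower at 24 h in labelled knockout, and 7 higher and 3 lower in wild type. The shares over all tested genes were 26.5% higher and 17.1% lower in labelled knockout and 29.7% higher and 20.3% lower in wild type, and the labelled knockout counts of this list were near them. Its largest increases were those of the feedback inhibitors. Socs1 rose by 4.83 ± 0.22 in labelled knockout and by 4.51 ± 0.22 in wild type, Socs2 by 2.69 ± 0.10 in labelled knockout and 2.98 ± 0.10 in wild type, and Cish by 2.44 ± 0.17 in labelled knockout and 2.54 ± 0.17 in wild type (limma, adjusted p at most 1.32e-06). The kinase gene Jak2 rose by 1.34 ± 0.09 in labelled knockout and by 1.17 ± 0.09 in wild type. The lower ones, named after their values were seen, were the receptor chain genes Il13ra1 (−1.73 in labelled knockout and −1.33 in wild type) and Il4ra (−0.92 in labelled knockout and −0.75 in wild type) and the kinase gene Jak3 (−0.60 in labelled knockout and −0.45 in wild type). The Jak3 call was lost without 24 h replicate 2 in labelled knockout and in 5 of 12 alternatives in wild type, without either untreated replicate among them. The median of the list was 0.14 in labelled knockout and 0.29 in wild type. Between genotypes 0 of 14 were called at 24 h, beside 7.43% of all tested genes.

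Of 9 tested transcription factors of alternative activation, 8 were called higher at 24 h in each genotype and 0 lower. Egr2 rose by 4.55 ± 0.10 in labelled knockout and by 4.47 ± 0.10 in wild type, Irf4 by 3.67 ± 0.09 in labelled knockout and 3.41 ± 0.09 in wild type, Bhlhe40 by 2.96 ± 0.10 in labelled knockout and 3.27 ± 0.10 in wild type, and Klf4 by 2.35 ± 0.10 in labelled knockout and 2.48 ± 0.10 in wild type (limma, adjusted p at most 3.78e-08). Of 9 NF-kB subunits and inhibitors, 3 were called higher and 3 lower in labelled knockout, and 4 higher and 1 lower in wild type, with list medians of −0.13 in labelled knockout and −0.07 in wild type, to be read against the same shares over all tested genes. Tnfaip3, an inhibitor, rose by 0.64 ± 0.10 in labelled knockout and by 0.94 ± 0.10 in wild type, and Nfkb1 by 0.48 ± 0.10 in labelled knockout and 0.87 ± 0.10 in wild type. Of 15 genes of alternative activation, 13 were called higher in labelled knockout and 14 in wild type, with 1 lower in each.

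Between genotypes at 24 h, 1 of these 15 was called higher and 5 lower in labelled knockout, with a list median of −0.23 against 0.04 over all tested genes. Of all 10510 tested genes 7.43% were called, 556 higher and 225 lower. F13a1, which encodes a coagulation factor subunit, was at −1.29 ± 0.12 (limma, adjusted p = 3.53e-04) and Arg1, which encodes arginase, at −1.38 ± 0.12 (adjusted p = 2.84e-04). Ccl24, with 0.38, was on the other side of 0 from both, as were 6 of these 15 genes. The Arg1 call was lost when only the libraries compared were fitted (adjusted p = 0.0743).

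Genes whose levels followed each chemokine most closely across the 12 BMDM libraries were found by the Pearson correlation of log2(FPKM + 1) over 9802 named genes. The libraries form 6 groups, so these values mostly describe shared group means. Closest to Ccl24 were Flt1 (r = 0.998), a receptor for vascular endothelial growth factor, Tmem26 (0.997), Pdcd1lg2 (0.995), which encodes the PD-1 ligand PD-L2, Casp6 (0.995) and Rab19 (0.995). Closest to Ccl22 were Ear2 (0.995), a ribonuclease gene, Ddx4 (0.993), Gfra2 (0.992), Mmp12 (0.990), the macrophage elastase gene, and Dna2 (0.989). Closest to Ccl17 were Cd52 (0.988), which encodes a leukocyte surface glycopeptide, Lrrc32 (0.981), Ccdc109b (0.979), the chemokine gene Ccl6 (0.979) and Elmo2 (0.978). Between the chemokines themselves r was 0.937 for Ccl17 with Ccl22, 0.825 for Ccl17 with Ccl24 and 0.666 for Ccl22 with Ccl24. For Ccl11, at its low levels, r was 0.693 with Ccl24, 0.364 with Ccl17 and 0.203 with Ccl22. The closest genes to Ccl11 were Nufip2 (0.970), Tmem168, Orc4, Bmi1 and Tmed7.

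In TAM the 4 chemokine genes were at most 1.44 FPKM in labelled knockout and at most 6.30 FPKM in wild type, and none reached 1 FPKM in 4 libraries, so the fit of 9897 genes did not test them. In that fit 0.101% of genes were called between the genotypes, 50% of them higher in labelled knockout as deposited, 22.2% after scaling by median of ratios and 20% after quantile normalization. The TAM values come from bulk RNA, in which fewer cells of a type and less RNA per cell cannot be told apart.

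Ccl17 had 0.511, 0.500, 0 and 0.546 FPKM in labelled knockout libraries 3, 4, 5 and 6, and 0.603, 1.12, 6.30 and 0.733 in wild-type libraries 1, 2, 7 and 8. All labelled knockout libraries lay below all wild-type ones, but wild-type library 7 stood far above the other three and the gap at the boundary was narrow, 0.546 against 0.603. Ccl22 had 0.429, 0.470, 0.532 and 0.255 FPKM in labelled knockout and 0.563, 0.303, 1.81 and 0.628 in wild type, again with library 7 highest and with overlap between the groups. Library 7 was thus the top library for both CCR4 ligands.

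Ccl24 had 0.873, 0.471, 0.922 and 0.0702 FPKM in labelled knockout and 0.899, 0.535, 5.31 and 4.44 in wild type. Wild-type libraries 7 and 8 were high, and libraries 1 and 2 lay within the range of labelled knockout. Ccl11 had 0.438, 0.390, 1.31 and 1.44 FPKM in labelled knockout and 0.580, 0.841, 0 and 1.20 in wild type, with no separation, and it was listed at 0 in the library where Ccl17, Ccl22 and Ccl24 were highest.

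The log2(FPKM + 1) difference, labelled knockout minus wild type, was −0.91 for Ccl17, −0.30 for Ccl22, −1.04 for Ccl24 and 0.20 for Ccl11. With no filter on low values none passed (limma, adjusted p = 0.464, 0.579, 0.431 and 0.754). Without wild-type library 7 the differences were −0.40 for Ccl17, −0.07 for Ccl22, −0.70 for Ccl24 and −0.02 for Ccl11. Across the 8 libraries r was 0.833 for Ccl17 with Ccl22, 0.8293 for Ccl22 with Ccl24 and 0.647 for Ccl17 with Ccl24. For Ccl11 r was −0.717 with Ccl17, −0.698 with Ccl22 and −0.397 with Ccl24. All these values share library 7, where Ccl11 was listed at 0 and the other chemokine genes were highest. The named genes closest to each were Hs3st3b1 (r = 0.975) for Ccl17, Rassf2 (0.923) for Ccl22, Gigyf1 (0.988) for Ccl24 and Hddc3 (0.981) for Ccl11, among 9388 genes.

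**Figure D4:**
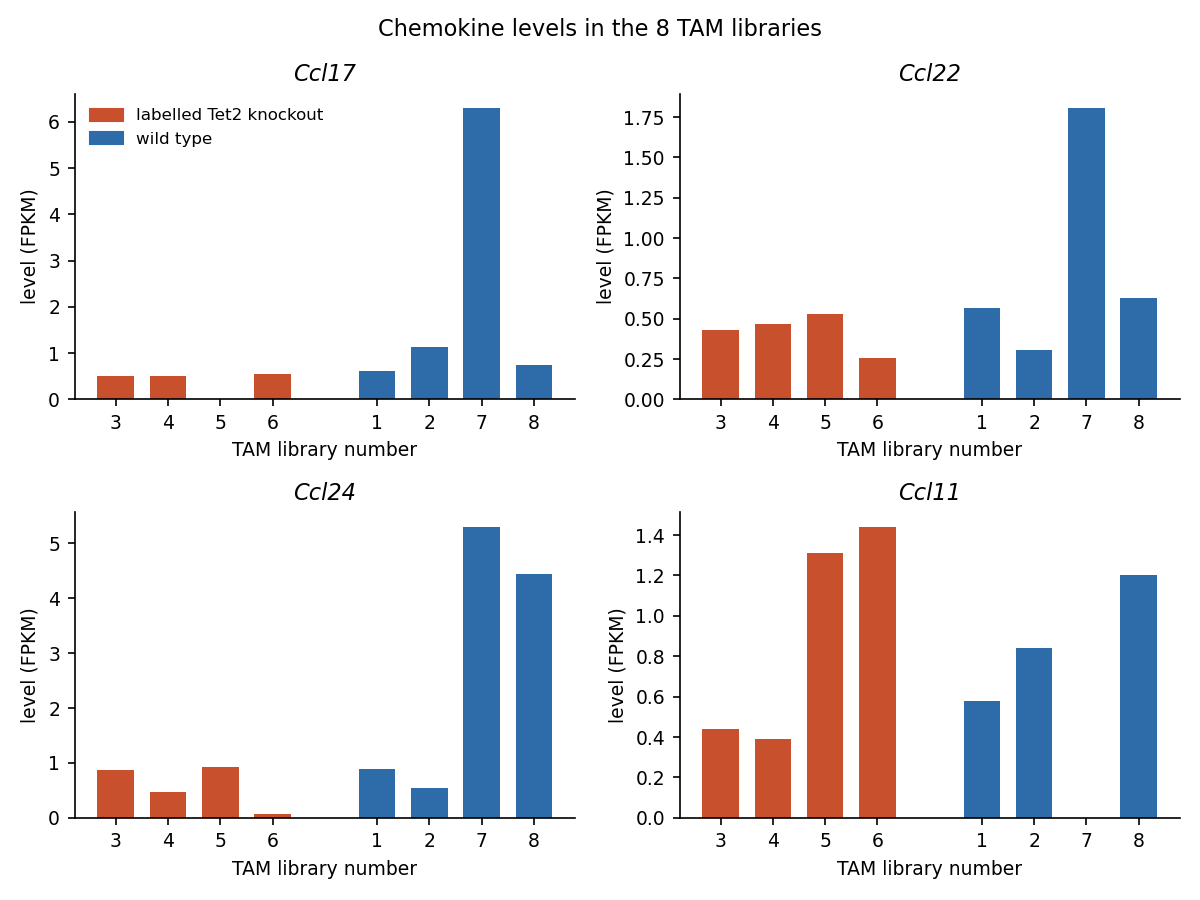
Level (FPKM, bars from 0, a separate scale for each gene) of the 4 chemokine genes in each of the 8 TAM libraries, labelled Tet2 knockout libraries 3 to 6 left of wild-type libraries 1, 2, 7 and 8. Wild-type library 7 has 6.30 FPKM of Ccl17 and 1.81 of Ccl22, libraries 7 and 8 have 5.31 and 4.44 of Ccl24, and Ccl11 is listed at 0 in library 7.

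Ccr3 and markers of other cell types were set beside these values, and not every list was high in both library 7 and library 8. Ccr3 had 0.418 to 0.794 FPKM in labelled knockout and 1.03, 0.995, 5.65 and 5.85 in wild-type libraries 1, 2, 7 and 8. Summed over 7 markers of eosinophils, basophils and mast cells the level was 0.558 to 1.56 FPKM in labelled knockout and 2.80, 3.92, 20.2 and 9.28 in those wild-type libraries. Most of it came from Siglec5, the older symbol of Siglecf, with 0.205 to 1.15 FPKM in labelled knockout and 1.44, 1.71, 8.26 and 4.41 in wild type, and from Prg2, the major basic protein gene of eosinophils, with 0 to 0.381 FPKM in labelled knockout and 1.18, 2.11, 10.1 and 2.92 in wild type. Epx, the eosinophil peroxidase gene, was listed at 0 in all 8 libraries, and Mcpt8 in all 4 wild-type ones.

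Dendritic cell markers, 8 in number, summed to 5.30 to 7.83 FPKM in labelled knockout and to 6.54, 6.25, 13.7 and 13.7 in wild type. Ccr7, which marks migratory dendritic cells, was highest in wild-type library 7 with 5.72 FPKM. T and NK cell markers summed to 6.91 to 9.83 FPKM in labelled knockout and to 7.96, 4.57, 24.7 and 7.60 in wild type. Fibroblast markers summed to 9.62 to 28.2 FPKM in labelled knockout and to 24.3, 27.9, 22.8 and 252 in wild type. Few markers of these lists could be tested, and 0 were called between genotypes, beside 0.101% of all genes. The counts tested were 2 for eosinophils, basophils and mast cells, 3 for dendritic cells, 3 for T and NK cells and 5 for fibroblasts. The part of these cells in the chemokine values was not tested.

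**Figure D5:**
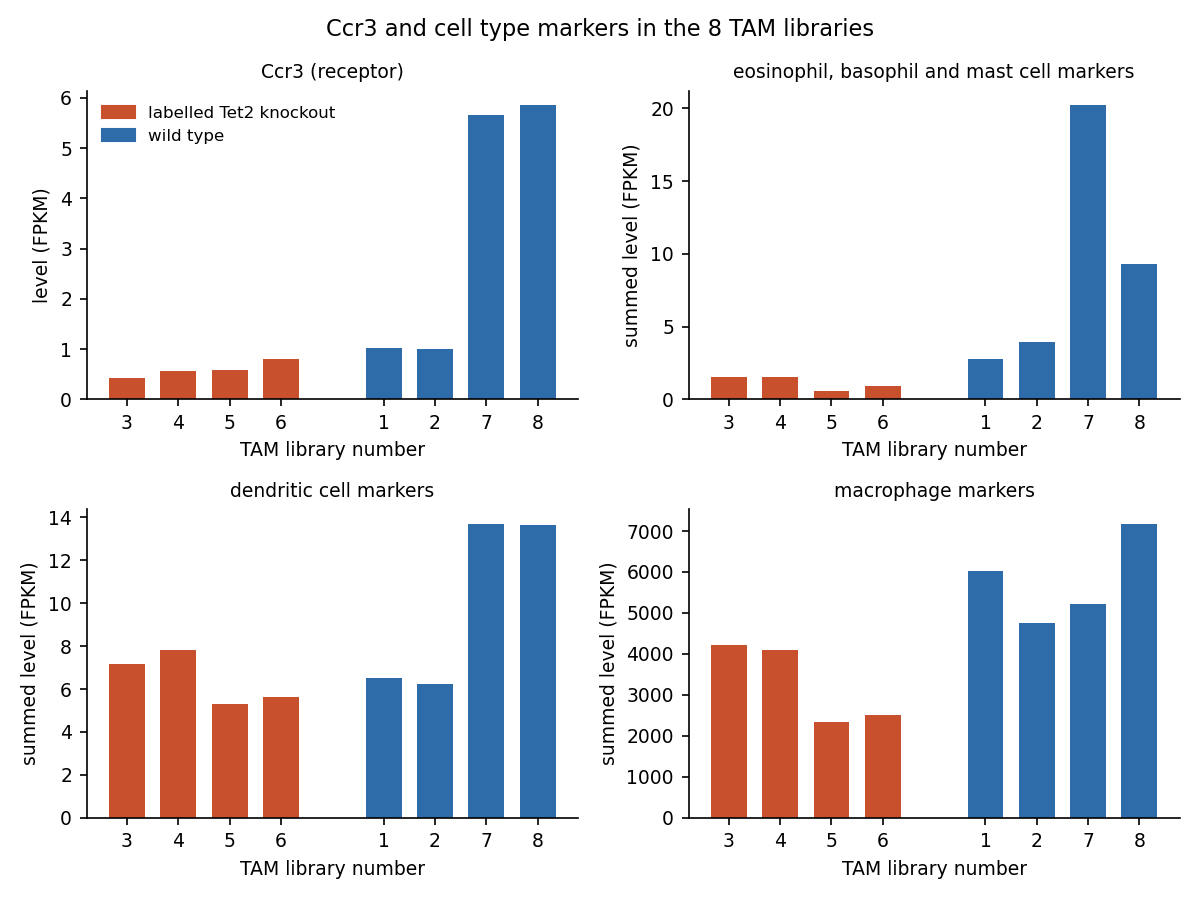
Ccr3 (FPKM) and the summed level (FPKM) of 7 eosinophil, basophil and mast cell markers, 8 dendritic cell markers and 7 macrophage markers in each of the 8 TAM libraries, labelled Tet2 knockout libraries 3 to 6 left of wild-type libraries 1, 2, 7 and 8, bars from 0. Ccr3 is at 5.65 and 5.85 in libraries 7 and 8 and at most 1.03 elsewhere, and the macrophage sums of the genotypes do not overlap (2341 to 4221 in labelled knockout and 4745 to 7178 in wild type). Of the 7 macrophage markers taken singly 0 were called between genotypes, with a median log2 difference of −0.02.

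The surrounding lists in TAM gave few calls, as did all genes, of which 0.101% were called. Of the other CC chemokines 0 of 9 tested were called between genotypes, of the IL4 receptor to STAT6 genes 0 of 14, of the transcription factors 0 of 9 and of the NF-kB genes 0 of 9. Ccl2, Ccl7, Ccl12 and Ccl8, the neighbours of Ccl11, had 49.9 to 837 FPKM over the 8 libraries. Of 14 alternative activation genes 1 was called, the lectin gene Clec10a at −1.87 ± 0.18 (limma, adjusted p = 0.0149), a call lost without wild-type library 1 and without labelled knockout library 3, 4 or 5. At an unadjusted p under 0.05, 16.9% of all genes tested in TAM passed. Dpp4 had 3.96 to 7.22 FPKM in labelled knockout and 2.98, 2.10, 6.12 and 0.342 in wild type, a difference of 0.88 ± 0.45 (adjusted p = 0.351), and Ccr4 had at most 0.174 FPKM in any TAM library.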

How the data were processed

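FPKM values per gene and library were deposited by the authors, with TopHat alignment to mm9 and Cuffdiff quantification per the submitters' processing notes. Versions, annotation and filters are not given in the sources used here, nor whether the libraries were also rescaled. The TAM table does not name its unit, and FPKM was taken from those notes. Depth in fragments is unknown, so no counting interval can be given. Two-sided limma 3.58.1 fits in R 4.3.3 used log2(FPKM + 1), an intensity trend and genes of at least 1 FPKM in at least 2 BMDM or 4 TAM libraries, with p-values adjusted over all tested genes. Each fit left 6 residual degrees of freedom, which moderation raised to 10.3 in BMDM and 8.54 in TAM. The fit was tested on simulated data. For 2 symbols listed repeatedly the entry with the higher mean was kept. Tables and figures were made in Python 3.11.15 with pandas 2.3.3, numpy 2.4.6 and matplotlib 3.10.9. Per the design text the BMDM replicates are biological. Alternatives changed the pseudocount, filter, scaling, trend, replicate block, libraries fitted and each library in turn.

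The chemokine genes and all gene lists were chosen with earlier results of these data known. The genes named are the 4 chemokines, Tet2, the 3 genes on either side of each, the 5 closest in correlation, and, for every list, the genes of smallest p up to 4. Exceptions are marked where they occur, apart from list genes below the filter, such as Cd3g, Epx, Mcpt8, Flt3, Darc and Ccbp2. These had no p in the fit concerned and were named for their level. RefSeq order and promoters come from GRCm38.p6, whose coordinates were not set against mm9.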

Additional observations from a re-analysis of the deposited data

Results flagged for a closer look

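In TAM, Ccl17 was set apart by a single library in each genotype. Among the labelled knockout libraries, library 5 was listed at 0 FPKM while the other three had 0.500 to 0.546, a gap of 0.917 of the group's range. Library 5 was also the shallowest TAM library, with a relative depth of 0.401. Among the wild-type libraries, library 7 had 6.30 FPKM while the others had 0.603 to 1.12, a gap of 0.909 of the range. Both exceed the critical value of Dixon's test for a group of 4, which chance passes in about 1 of 20 groups of normally distributed values. The test was run on FPKM, for all 4 chemokine genes and Tet2 in both TAM groups. No other value passed it. Library 7 also had the highest Ccl22 and Ccl24 of the 8 libraries. Its marker sums for T and NK cells and for eosinophils, basophils and mast cells were the highest too, with Epx listed at 0. Its dendritic cell sum was highest by little (13.70 FPKM against 13.65 in library 8), and the macrophage and fibroblast sums were highest in library 8. The part of these cells in its Ccl17 level was not tested.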

How the results depend on the processing

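Every alternative was planned. With a filter of 1 FPKM in every library only Ccl24 was still tested, so the count of chemokine genes called was 1 in all 6 IL4 comparisons, against 2 at 10 h and 3 in the others. Leaving out single replicates gave 1 to 2 in labelled knockout at 10 h. With no filter the count between genotypes at 24 h was 1, for Ccl11 (0.29, adjusted p = 0.0481). Genotype values near 0 changed sign when 1 replicate was left out. Their lowest and highest values were −0.023 and 0.019 for untreated Ccl22, −0.46 and 0.077 for Ccl17 and −0.036 and 0.20 for Ccl22 at 10 h, and −0.40 and 0.081 for Ccl17 and −0.085 and 0.34 for Ccl22 at 24 h. For the interactions they were −0.53 and 0.0098 for Ccl17 and −0.034 and 0.20 for Ccl22 at 10 h, and −0.47 and 0.013 for Ccl17 and −0.083 and 0.34 for Ccl22 at 24 h. The cause was not tested. No other direction changed for the tested genes. Correlations of replicate differences between groups were weak (−0.141 to 0.149 over 15 pairs of groups, 9 of them above 0). They cannot settle whether samples of the same replicate number were paired. The replicate block left 1 chemokine call lost, Ccl24 from 10 h to 24 h in wild type (0.47, limma, adjusted p = 0.0589). Counts of all called genes between genotypes were 98 to 1392 over the alternatives, against 284, in untreated cultures, 94 to 436 against 299 at 10 h, 18 to 1257 against 781 at 24 h and 1 to 23 against 10 in TAM. For the interactions they were 2 to 62 against 10 at 10 h and 8 to 1169 against 31 at 24 h. For IL4 against untreated they were 2708 to 5532 against 4074 in labelled knockout and 2859 to 5007 against 4461 in wild type at 10 h, and 2908 to 5676 against 5255 in wild type at 24 h. From 10 h to 24 h they were 1236 to 3413 against 2422 in labelled knockout and 1230 to 3135 against 2726 in wild type. The count for IL4 against untreated in labelled knockout at 24 h moved by a smaller factor than those above and is not listed. Low FPKM limits what can be said of Ccl11 in BMDM and of all 4 genes in TAM.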
